A study of Mus musculus with 6 samples.

Results

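The genes described here are factors known for keeping T cells quiescent. They comprise the forkhead factors Foxo1, Foxo3 and Foxp1, the Krüppel-like factors Klf2 and Klf3, and Btg1, Btg2, Cdkn1b, Slfn2 and Pik3ip1. They were chosen by symbol. Of these 10 genes, 8 were among the 14051 genes listed in the expression table and all 8 were among the 11649 tested, while Foxp1 and Btg1 were not analysed here. The 6 libraries were made from donor CD8+ T cells of the BM on day 5 after transplantation. In both groups, B6D2F1 recipients had total body irradiation on day -1 and were then given purified T cells of B6.CD45.1 mice. By the authors' methods, treated recipients received dexamethasone, a glucocorticoid (GC), at 5 mg/kg/day i.p. from day -1 to day 5. The others received methyl β-cyclodextrin, the carrier that keeps dexamethasone in solution, over the same days. The titles label 3 libraries GC and 3 NoGC, called GC-treated and vehicle-treated here. An i.v. anti-CD45 antibody marked the cells inside vessels, and marked donor CD8+ cells were sorted from marrow pooled from 2 to 3 mice per biological group. Whether each library had its own pool is not stated, and the sources used here give no ages for the mice.

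Quiescence in T cells is an actively held state. In resting cells FOXO proteins sit in the nucleus and drive genes of survival, homing and cell cycle arrest, and signals from the antigen receptor and cytokines act through PI3K and AKT to phosphorylate them and move them out. KLF2 is one of the factors downstream of FOXO1, and raises genes of tissue egress such as S1pr1. Activated T cells lower many of these genes as they divide, and the donor T cells of a transplant across MHC barriers meet alloantigen in their first days.

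Reads on listed genes numbered 60949593 to 76888118 per library, and no pair of libraries agreed within sampling noise. The disagreement of each pair was measured as chi-square per degree of freedom. For GC-treated 1 it was 21.2, 36.0 and 31.3 against vehicle-treated 1, 2 and 3, and 105 and 151 against GC-treated 2 and 3. GC-treated 1 was thus closer to the vehicle-treated libraries than to those of its own group. The sorted cells carried T cell markers, with Cd3e at normalized counts of 24671 to 28358 and Cd8a at 63285 to 93850 against 86.3 to 178 for Cd4. Csf1r of macrophages stood at 190.3 to 329 and Ncr1 of NK cells at 13.9 to 38.7. Neutrophil genes stood apart between libraries: the summed count of the 14 listed markers of 17 ran from 2068 to 14745 in the GC-treated libraries and from 810 to 5105 in the vehicle-treated ones, or 0.00123% to 0.0219% of a library. The proliferation marker Mki67 read 40932, 24953 and 19416 in replicates 1, 2 and 3 with GC treatment, and 43158, 49759 and 36932 with vehicle. In cells sorted in bulk, fewer cells of a type and less RNA per cell cannot be told apart.

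Genes that glucocorticoids are known to induce did not move together between the labelled groups. Of 10 such genes, listed after values of these libraries had been seen, 9 were tested, 6 had negative and 3 had positive log2 fold changes, 3 had an unadjusted p under 0.05 and 0 passed limma's test. Fkbp5, a co-chaperone of the glucocorticoid receptor, read 21148, 16401 and 14780 in replicates 1, 2 and 3 with the GC label, and 24889, 32705 and 21271 with the vehicle label. The groups did not overlap and the GC label had the lower counts, with a log2 fold change of -0.59. Tsc22d3, which encodes GILZ, had -0.23, Per1 -0.26, Ddit4 -0.65, Sgk1 -0.33 and Klf9 -0.17. Dusp1 had 0.47, Nfkbia 0.31 and Cebpd 1.05, the last from low counts of 8.73 to 52.6. The median of the 9 tested genes was -0.23. The groups did not overlap for Nfkbia either, with the higher counts under the GC label. Of the 3 genes with an unadjusted p under 0.05 from limma, Fkbp5 was negative, and Dusp1 and Nfkbia were positive. These genes therefore do not give a uniform check of the labels. Every direction below, with GC treatment or with vehicle, is that of the labels, and whether each label matches the treatment given was not tested.

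The promoters of 3 members are shown because their genes carry the largest difference with each sign and a well-known FOXO target among cell cycle inhibitors. Each runs from 250 bases before to 50 bases after the start of the canonical transcript of Gencode M39. Capitals mark the core letters CACCC, which Krüppel-like factors bind, and AAACA, the core that forkhead factors bind, read on both strands.
Klf2, chr8:73072476-73072775, GRCm39, forward strand: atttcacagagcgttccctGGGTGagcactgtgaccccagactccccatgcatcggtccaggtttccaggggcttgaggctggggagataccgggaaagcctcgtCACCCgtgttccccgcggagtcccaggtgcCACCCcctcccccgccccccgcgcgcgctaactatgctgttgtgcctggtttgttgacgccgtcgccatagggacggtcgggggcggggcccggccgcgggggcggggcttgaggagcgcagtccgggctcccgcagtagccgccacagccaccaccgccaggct
Cdkn1b, chr6:134897114-134897413, GRCm39, forward strand: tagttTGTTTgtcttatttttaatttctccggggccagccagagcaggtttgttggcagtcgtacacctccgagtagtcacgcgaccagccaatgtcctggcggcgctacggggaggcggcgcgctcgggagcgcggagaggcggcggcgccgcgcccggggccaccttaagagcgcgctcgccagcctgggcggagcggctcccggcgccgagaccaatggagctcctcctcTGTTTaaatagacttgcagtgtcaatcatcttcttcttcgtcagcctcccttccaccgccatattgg
Slfn2, chr11:82955359-82955658, GRCm39, forward strand: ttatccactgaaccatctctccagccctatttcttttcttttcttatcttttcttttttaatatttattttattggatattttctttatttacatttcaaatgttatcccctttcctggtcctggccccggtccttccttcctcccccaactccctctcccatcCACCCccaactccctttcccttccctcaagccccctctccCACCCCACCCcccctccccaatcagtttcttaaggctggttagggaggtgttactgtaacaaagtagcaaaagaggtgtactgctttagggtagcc

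The Klf2 window held CACCC or its reverse complement 3 times, from base -231, -145 and -115 relative to the start, and the Slfn2 window held it 3 times. The Cdkn1b window held AAACA, as TGTTT on the strand shown, from base -245 and from base -17. These short cores are common: over the windows of 21770 protein-coding genes, CACCC was in 58.7% and AAACA in 50%. Of the 8 genes in the table, 4 had CACCC and 4 had AAACA. The longer letters GTAAACA of FOXO (3.15% of all windows), CCACACCC of Krüppel-like factors (4.11%) and AGAACA, the half-site of the glucocorticoid receptor (17.0%), were in none of the 8 windows. The windows also differed in composition. The Klf2 and Cdkn1b windows held 27 and 30 CpG dinucleotides, and the Slfn2 window held 1, with a GC content of 46% against 69.7% for Klf2 and a median of 54.3% over all windows.

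None of the 8 genes differed between the GC-treated and vehicle-treated libraries at an adjusted p under 0.05 from limma, edgeR or DESeq2, and the groups overlapped in at least 1 library for each. Over the 11649 tested genes limma called 0% higher and 0% lower, and edgeR 0% and 0%. DESeq2, run without the filter on low counts, called 0% higher and 0.0143% lower of 14034 genes. For 12.8% of the 11649 tested genes the groups did not overlap. At an unadjusted p under 0.05 there was 1 member, Klf2, in each of the 3 tools. The share was 7.19% of the 11649 tested genes in limma, 6.08% of these in edgeR and 7.04% of the 14034 genes in DESeq2. The log2 fold changes of 7 members were negative and that of 1, Slfn2, was positive, where 51.5% of all tested genes had negative values. Their median was -0.20, and that of all tested genes was -0.0079.

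**Figure D1:**
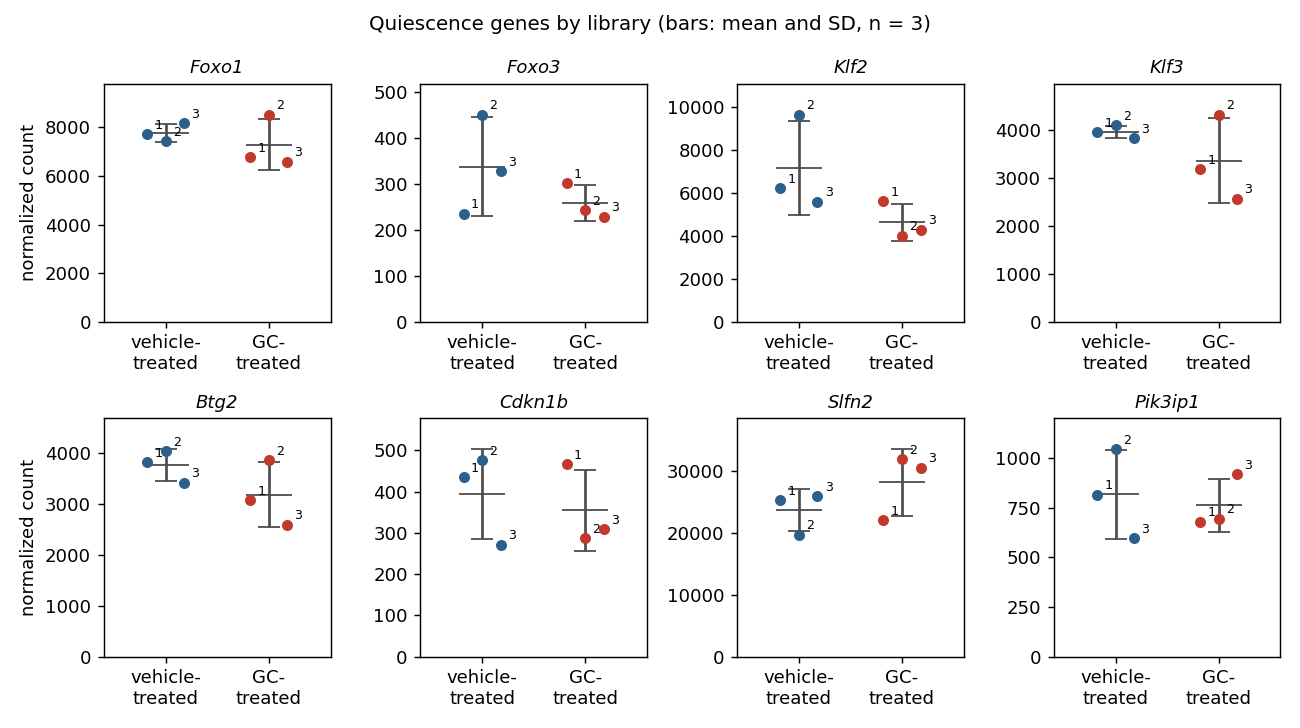
Normalized counts of the 8 quiescence genes in the 6 libraries. Each point is 1 library with its replicate number, and each bar shows a group's mean with its SD (n = 3). Vehicle-treated 2 holds the highest count of 5 genes, and the groups overlap in each panel.

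**Figure D2:**
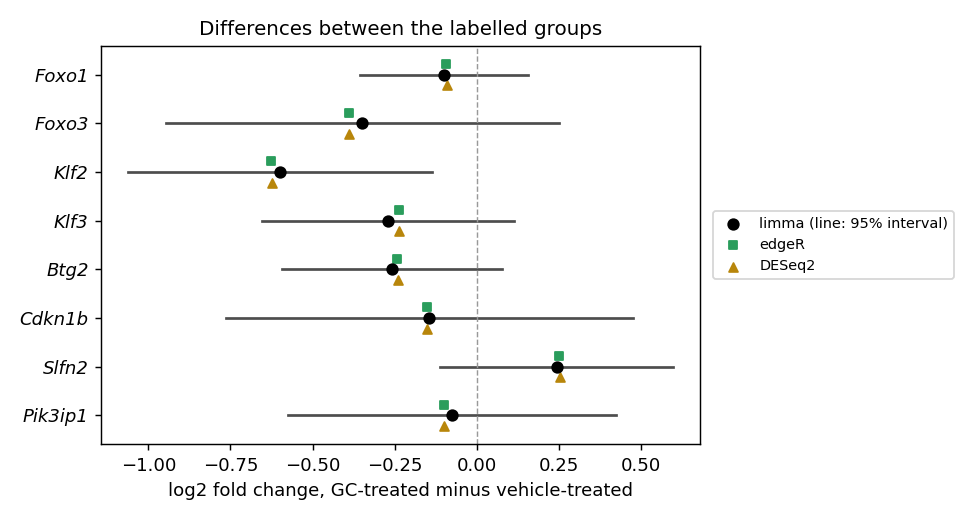
Log2 fold change of each gene, GC-treated minus vehicle-treated, from limma with its 95% interval (circle and line), edgeR (square) and DESeq2 (triangle). The interval of Klf2, from -1.06 to -0.14, lies below 0 before adjustment over all genes, and the other 7 intervals include 0.

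Foxo1 encodes the FOXO factor that governs naive T cell homeostasis, and spans 52175757 to 52260642 of chromosome 3 on the forward strand of GRCm39. The normalized counts of replicates 1, 2 and 3 read 6780, 8524 and 6584 with GC treatment, and 7720, 7428 and 8179 with vehicle. The GC-treated libraries held both the highest and the lowest count, with the vehicle-treated ones between them. The GC-treated mean was 7296 ± 1068 and the vehicle-treated mean 7775 ± 379 (each SD, n = 3), which gave a log2 difference of -0.10 with a standard error of 0.11 (adjusted p = 0.75, limma), with a 95% interval of -0.36 to 0.15. An exon of Foxo1 overlaps Gm20402 on the other strand.

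Foxo3, a second FOXO factor with overlapping targets, spans 42057837 to 42154007 of chromosome 10 on the reverse strand and was read far less. The counts of replicates 1, 2 and 3 read 302, 243 and 229 with GC treatment, and 236, 451 and 328 with vehicle. Vehicle-treated 2 was the highest, and vehicle-treated 1 lay among the GC-treated libraries. This gave a log2 difference of -0.35 with a standard error of 0.26 (adjusted p = 0.67, limma), with an interval of -0.95 to 0.25. Between 216 and 417 reads stood behind each value, a counting error of at most 6.80%. Compared per kilobase of exon, the level of Foxo1 was 16.4 to 34.9 times that of Foxo3 in the 6 libraries, and the ratio was lowest in vehicle-treated 2.

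Klf2 encodes the Krüppel-like factor that raises S1pr1 and restrains T cell proliferation, and spans 73072726 to 73075502 of chromosome 8 on the forward strand, where it overlaps Eps15l1 on the other strand but none of its exons. The counts of replicates 1, 2 and 3 read 5626, 4012 and 4296 with GC treatment, and 6231, 9648 and 5601 with vehicle. The 3 vehicle-treated libraries lay above GC-treated 2 and 3, and GC-treated 1 lay just above vehicle-treated 3. The GC-treated mean was 4645 ± 862 and the vehicle-treated mean 7160 ± 2178 (each SD, n = 3), which gave a log2 difference of -0.60 with a standard error of 0.20 (adjusted p = 0.62, limma). DESeq2 gave -0.62 with an adjusted p of 0.42, or -0.070 after shrinkage with ashr, and over the settings run the adjusted p ranged from 0.13 to 0.93. Without vehicle-treated 2 the log2 fold change was -0.36, and without vehicle-treated 3 it was -0.75.

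Some other measures of the libraries moved with Klf2, a comparison that the design did not plan. The summed B cell markers and the summed monocyte and macrophage markers followed neither the full order of the Klf2 counts nor its reverse. Mki67 put the libraries in the order of the Klf2 counts, but for GC-treated 2 and GC-treated 3, which changed places. The share of mitochondrial transcripts read 0.902%, 0.400% and 0.615% in replicates 1, 2 and 3 with GC treatment, and 0.910%, 1.13% and 0.757% with vehicle, which puts the 6 libraries in the same order as the Klf2 counts. The summed neutrophil markers read 2068, 14745 and 10655 in replicates 1, 2 and 3 with GC treatment, and 925, 810 and 5105 with vehicle, exactly the reverse of that order. Of the 14 listed neutrophil genes tested, 12 had positive and 2 had negative log2 fold changes, 5 of the positive ones at an unadjusted p under 0.05, and none passed the test. Their defining markers Ltf and S100a8 ran from 0 to 5785 and from 109 to 3383. The part of these measures in the Klf2 result was not tested.

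**Figure D3:**
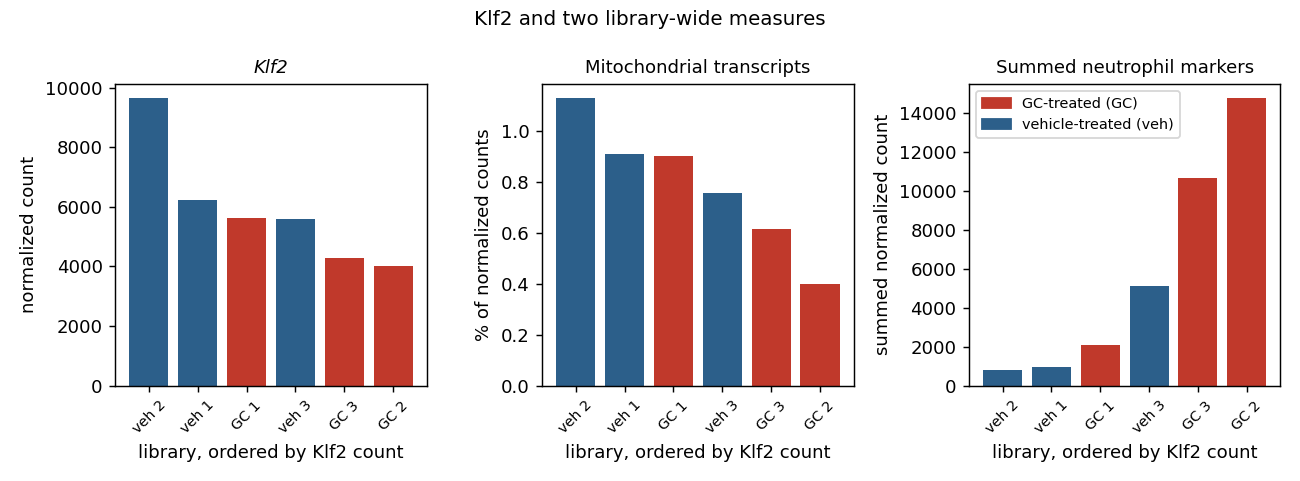
Klf2 normalized count, share of mitochondrial transcripts in percent of a library's normalized counts, and summed normalized count of 14 neutrophil markers in each library, with libraries ordered by Klf2. Bars are single libraries, red for GC-treated and blue for vehicle-treated. Klf2 and the mitochondrial share are highest in vehicle-treated 2 and lowest in GC-treated 2, and the neutrophil sum is 810 in the former and 14745 in the latter.

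Klf3, a repressor of the same family that is itself known as a target of Krüppel-like factors, spans 64959875 to 64990261 of chromosome 5 on the forward strand, with an exon that overlaps Gm20033. Replicates 1, 2 and 3 had counts of 3186, 4320 and 2571 with GC treatment, and 3954, 4097 and 3831 with vehicle. The vehicle-treated libraries lay close together, and the GC-treated ones spanned both the highest and the lowest count, as for Foxo1. The GC-treated mean was 3359 ± 888 and the vehicle-treated mean 3961 ± 133 (each SD, n = 3), which gave a log2 difference of -0.27 with a standard error of 0.17 (adjusted p = 0.63, limma). It was -0.47 without GC-treated 2 and -0.094 without GC-treated 3. Per kilobase of exon the level of Klf2 was 6.52 to 16.5 times that of Klf3.

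Btg2 encodes an antiproliferative protein that brings the CCR4-NOT deadenylase to mRNA, and spans 134002908 to 134015033 of chromosome 1 on the reverse strand, with an exon overlapping Gm31974. The counts of replicates 1, 2 and 3 read 3081, 3868 and 2598 with GC treatment, and 3826, 4038 and 3420 with vehicle. GC-treated 2 lay among the vehicle-treated libraries and the other two GC-treated libraries lay below them. This gave a log2 difference of -0.26 with a standard error of 0.15 (adjusted p = 0.63, limma), with an interval of -0.59 to 0.078. Without GC-treated 2 it was -0.41, with an adjusted p of 0.67 from limma, and without GC-treated 3 it was -0.12.

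Cdkn1b encodes p27, an inhibitor of cyclin-dependent kinases that FOXO factors are known to raise, and spans 134897364 to 134902476 of chromosome 6 on the forward strand, with an exon overlapping Gm44238. Replicates 1, 2 and 3 had counts of 467, 288 and 309 with GC treatment, and 435, 476 and 271 with vehicle. GC-treated 1 and vehicle-treated 1 and 2 were high and the other three libraries low, so each group held both levels. This gave a log2 difference of -0.15 with a standard error of 0.27 (adjusted p = 0.85, limma), with an interval of -0.76 to 0.47. The sign turned without vehicle-treated 2, to 0.011.

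Slfn2 belongs to the Schlafen family, and its loss is known to break T cell quiescence. It spans 82955609 to 82961504 of chromosome 11 on the forward strand, beside close paralogs whose reads may be split between them. The counts of replicates 1, 2 and 3 read 22032, 31889 and 30530 with GC treatment, and 25266, 19720 and 25973 with vehicle. GC-treated 2 and 3 were the highest, and GC-treated 1 lay below vehicle-treated 1 and 3. The GC-treated mean was 28150.4 ± 5342 and the vehicle-treated mean 23653 ± 3424 (each SD, n = 3), which gave a log2 difference of 0.24 with a standard error of 0.16 (adjusted p = 0.63, limma), with an interval of -0.11 to 0.60. Leaving out 1 library moved it from 0.12, without vehicle-treated 2, to 0.41, without GC-treated 1.

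Pik3ip1 encodes a membrane protein that binds and inhibits PI3K, upstream of FOXO export from the nucleus. It spans 3280401 to 3292971 of chromosome 11 on the forward strand, with exons overlapping Gm12592 and Gm74265. Replicates 1, 2 and 3 had counts of 680, 695 and 918 with GC treatment, and 817, 1044 and 596 with vehicle. The vehicle-treated libraries held both the highest and the lowest count. This gave a log2 difference of -0.076 with a standard error of 0.22 (adjusted p = 0.91, limma), the smallest of the 8, with an interval of -0.58 to 0.42. It turned positive without vehicle-treated 2, at 0.12.

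Levels differed between the 8 genes far more than between libraries. Scaled per kilobase of exon and per 1000000 reads on listed genes (RPKM, from recovered reads and the union of Gencode M39 exons), Slfn2 was the highest with a mean level of 194 over the 6 libraries, at the 98.9 percentile of tested genes. Klf2 followed at 41.3, then Foxo1 at 12.1, Btg2 at 8.28 and Klf3 at 3.64, around the median level of 4.53 of all tested genes. Pik3ip1 stood at 2.27, Cdkn1b at 1.23 and Foxo3 at 0.483, at the 20.1 percentile. The ranges over libraries overlapped for 1 pair of neighbours in this order, Klf3 at 2.54 to 4.28 and Pik3ip1 at 1.69 to 3.04. The lengths count all annotated exons, 14998 bases for Klf3, so these levels depend on the annotation.

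The libraries that were high or low differed from gene to gene. Vehicle-treated 2 held the highest count of 5 members, Foxo3, Klf2, Btg2, Cdkn1b and Pik3ip1, and the lowest count of Slfn2. GC-treated 2 held the highest count of the other three, and the lowest of Klf2. GC-treated 3 held the lowest count of 4, Foxo1, Foxo3, Klf3 and Btg2. Foxo1, Klf3 and Btg2, grouped after their values were seen, deviated from their own means in the same direction in GC-treated 1, 2 and 3. The log2 values were -0.15, -0.18 and -0.16 in GC-treated 1, 0.18, 0.26 and 0.17 in GC-treated 2 and -0.19, -0.49 and -0.40 in GC-treated 3. Klf2 did not share this, at -0.0070, -0.49 and -0.40. The other Schlafen genes had median deviations of the same signs, at -0.12, 0.27 and -0.32, and the share of all tested genes with these signs was not counted. The highest count was 1.29 times the lowest for Foxo1 and 2.40 times for Klf2, with the other 6 genes between them. The median coefficient of variation over the 6 libraries was 19.7% for the 8 genes and 13.2% for all tested genes.

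**Figure D4:**
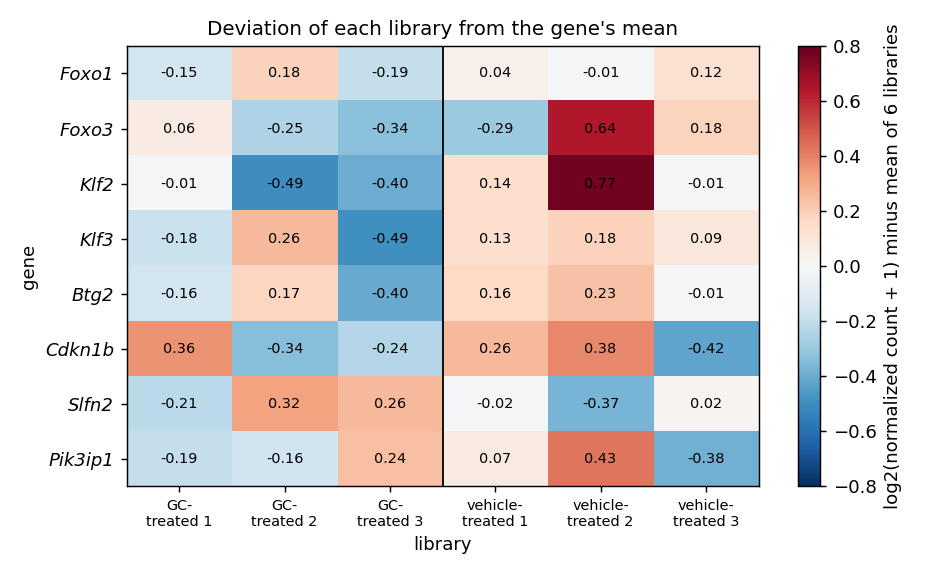
Deviation of log2(normalized count + 1) in each library from the gene's mean over 6 libraries, for the 8 genes (rows), with a line between GC-treated and vehicle-treated libraries. Red is above and blue below the mean. The largest values are 0.77 for Klf2 and 0.64 for Foxo3, both in vehicle-treated 2.

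The families around these genes gave no called gene in limma. Of 8 tested genes among 11 other forkhead genes, 0 were higher, 0 were lower and 8 had negative log2 fold changes, with a median of -0.16. Foxm1, a forkhead factor of dividing cells, had the smallest p and the highest mean of that list, at -0.46 with a standard error of 0.15 (adjusted p = 0.62, limma). It read 11750, 8320 and 7485 in replicates 1, 2 and 3 with GC treatment, and 12827, 12687 and 11584 with vehicle. GC-treated 1 lay above vehicle-treated 3, so the groups overlapped. Foxk1 had -0.38, without overlap of the groups, and Foxp4 had -0.22. Foxo4, a FOXO factor named after its values were seen, was low, at 83.1 to 107 with the GC label and 89.7 to 120.0 with the vehicle label.

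Of 12 tested genes among 15 other Krüppel-like factors, 0 were higher and 0 were lower, 7 had negative and 5 positive values, and the median was -0.057. Klf6, an early response gene and the highest of them, read 13262, 16299 and 12535 in replicates 1, 2 and 3 with GC treatment, and 12627, 11179 and 13080 with vehicle, a log2 fold change of 0.18. Klf8 had -0.53 and Klf7 0.28, and none passed the test. Of 6 tested genes among 9 other Schlafen genes, 0 were higher and 0 were lower, with 4 negative and 2 positive values. Slfn5 read 327, 380.1 and 324 in replicates 1, 2 and 3 with GC treatment, and 657, 533 and 565 with vehicle, without overlap, which gave a log2 difference of -0.76 with a standard error of 0.17 (adjusted p = 0.62, limma). Slfn4, known from myeloid cells, was at 164, 596 and 203 and at 54.5, 57.3 and 168, a log2 fold change of 1.73 with the highest value in the library with the most neutrophil transcripts, and the part of these in it was not tested. Slfn1, the highest of that list by count, had 0.29 and Slfn9 -0.25.

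Among 14 genes that FOXO1 and KLF2 are known to set in T cells, all tested, 0 were higher and 0 were lower in limma, and 11 had negative values with a median of -0.14. Il7r, the IL-7 receptor chain that FOXO1 drives, read 1147, 1058 and 888 in replicates 1, 2 and 3 with GC treatment, and 2216, 2893 and 1493 with vehicle. The groups did not overlap, with a log2 difference of -1.05 with a standard error of 0.22 (adjusted p = 0.62, limma). DESeq2 called it lower at an adjusted p of 0.0094, while over the settings run its adjusted p ranged from 0.0094 to 0.93 and passed in DESeq2 alone. S1pr1, which KLF2 raises, had -0.42, with its libraries in the order vehicle-treated 2, vehicle-treated 1, GC-treated 1, vehicle-treated 3, GC-treated 2 and GC-treated 3, which differs from the Klf2 order in the last pair alone. Cd69, whose product antagonizes S1PR1 at the cell surface, had 0.26, and Itgb7, the highest of the list, had -0.13. The groups did not overlap for 3 of the 14 genes, Il7r and Cd69 among them. Of 19 tested genes among 20 FOXO targets of stress, autophagy and metabolism, none passed the test, 10 had negative and 9 positive values, and the median was -0.030. Txnip, an inhibitor of thioredoxin and glucose uptake, had -0.27, Sesn2, which restrains mTORC1, had -0.34, and Gadd45b had 0.28. The groups did not overlap for these 3 of the 19 genes, as for 12.8% of all tested genes. Cat, which encodes catalase and is the highest of the list, had -0.032.

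Upstream, all 26 genes of the PI3K and AKT pathway were tested, and 0 were higher and 0 lower. Negative values were given by 22 and positive ones by 4, with a median of -0.22, and 5 of the negative ones had an unadjusted p under 0.05 from limma, as did 5.07% of all tested genes. Pik3r5, a regulatory subunit of PI3Kγ, had -0.42, Rptor, the RAPTOR subunit of mTORC1, had -0.47, and Tsc1, an inhibitor of mTORC1 that is itself needed for quiescence, had -0.38. Pik3cd, the catalytic subunit of lymphocytes and the highest of the list, had -0.066. The list's median log2 deviation read 0.093, -0.067 and -0.28 in replicates 1, 2 and 3 with GC treatment, and 0.089, 0.12 and 0.027 with vehicle, so that GC-treated 1 lay among the vehicle-treated libraries.

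The genes of the cell cycle that quiescence factors hold in check also gave no called gene. Of 15 cyclins and CDKs, 8 had negative and 7 positive values, with a median of -0.028. Cdk6 had -0.55 and Cdc25b, a phosphatase that activates CDKs, had -0.59, while Ccnd3, the highest of the list, had 0.019. Of 11 tested genes among 13 other genes of CDK inhibitors, pocket proteins and their partners, 6 were negative and 5 positive, with Rb1 at -0.19, Rbl1 and Rbl2 each at -0.13. Cks1b, the highest of the list, is no inhibitor but a CDK-binding subunit that promotes the breakdown of p27, and had 0.033. Of 19 proliferation markers, 12 were negative and 7 positive, with a median of -0.038. Mki67 had -0.67 and Top2a -0.40, while Mcm6, a subunit of the replicative helicase and the highest of the list, had -0.010. The groups did not overlap for 4 of these 19 genes, Top2a among them, but overlapped for Mki67. Of 15 tested genes of the BTG and TOB family with CCR4-NOT, 9 were negative, with Cnot6l, a deadenylase, at -0.47, the scaffold Cnot1 at -0.40 and Cnot6 at -0.19. Of 20 other regulators of T cell quiescence, 13 were negative and 7 positive, with a median of -0.095. Ets1, the highest of them, had -0.26 and Hopx had 0.27.

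**Figure D5:**
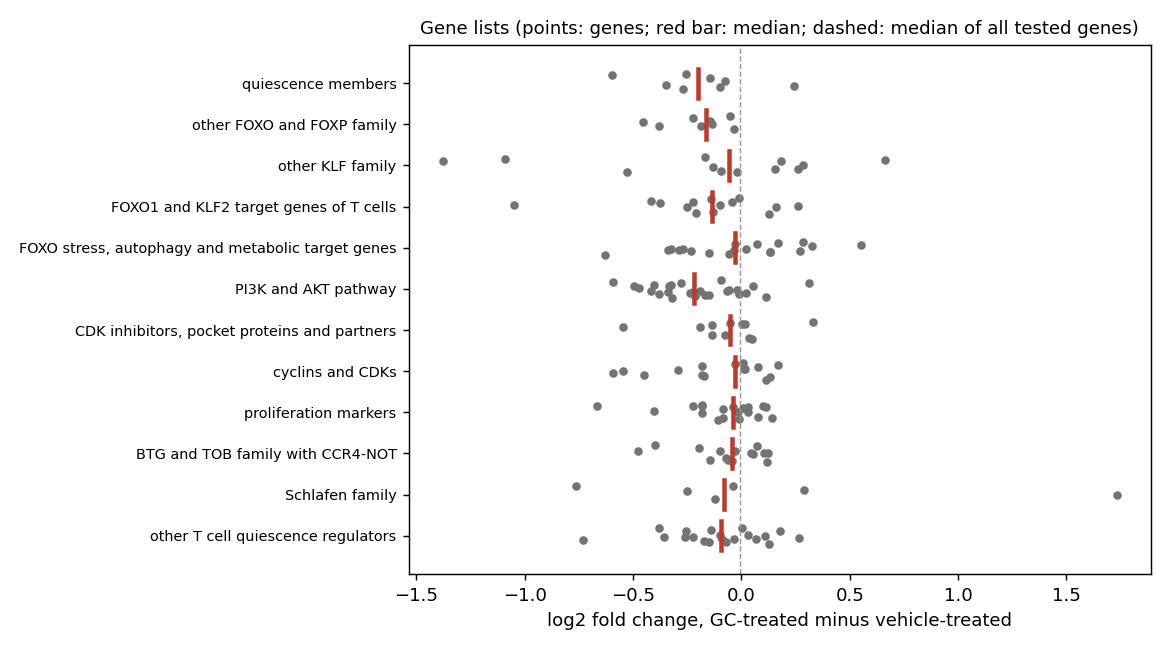
Log2 fold changes, GC-treated minus vehicle-treated, of the tested genes of each list (points), with the list's median (red bar) and the median of all tested genes (dashed line at -0.0079). The medians of the lists lie between -0.22, for the PI3K and AKT pathway, and -0.028, for cyclins and CDKs, and none of the points passed limma's test.

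The other cell types that could be in a sort from marrow were read through their lists. Of 12 tested CD8 T cell markers, 3 had negative and 9 positive log2 fold changes, with a median of 0.10. The marker with the highest mean, Ptprc, was among the negative ones, at -0.041. All 8 genes of the CD4 T cell list were negative, with a median of -0.24, and a summed count of 13720 to 14074 with the GC label and 13904 to 16746 with the vehicle label. Cd5, its highest and also a gene of CD8 T cells, had -0.082. Of 10 tested monocyte and macrophage genes 7 were negative, with Ccr2, which activated T cells also express, at 0.073, and the sum ran from 19807 to 25925 and from 16590 to 25725. Of 5 tested B cell genes 4 were negative, with Ighm at -0.14, and the sum ran from 19198 to 23265 and from 18852 to 27521. Of 5 tested erythroid genes 4 were negative, and the sums of 373 to 495 and 526 to 937 did not overlap. Hba-a1 had -0.91, from 128 to 182 with the GC label and from 183 to 390.5 with the vehicle label. Of 4 tested NK cell genes 2 were negative, with Klrk1, also a gene of activated CD8 T cells, at 0.22, and the sum ran from 27502 to 34037 and from 24876 to 29445. None of these genes passed limma's test, and their part in the values of the quiescence genes was not tested.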

How the data were processed

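Bulk RNA-Seq of 6 libraries of sorted donor CD8+ T cells was analysed, 3 labelled GC-treated and 3 labelled vehicle-treated. Alignment by the authors used STAR and GRCm39, gene counting used summarizeOverlaps, and normalization used DESeq2. The sources used here give no versions of these tools. The authors deposited a normalized signal for 14051 gene symbols, in which each library's counts were divided by 1 size factor. Of the deposited values, 100% lay within 0.001 of a whole multiple of the library's smallest value above 0, so the reads were recovered. For GC-treated 2 this step lies near 1, and an automatic check could not judge it.

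Testing was by limma 3.58.1 for the 11649 genes that reached a normalized count of 10 in 3 or more libraries, on log2(normalized count + 1), with a mean-variance trend. Benjamini-Hochberg adjustment ran over all tested genes, with a threshold of 0.05. Fold changes are on this scale, and intervals are 95% intervals from limma. As alternatives in R 4.3.3, recovered reads were tested by edgeR 4.0.16 and by DESeq2 1.42.0, the latter also with ashr 2.2.63 shrinkage. The design named limma for normalized values. The tests were tested on simulated data. The other alternatives were TMM-scaled reads, other filters and pseudocounts, limma without a trend, a block on the replicate number, and the omission of each library in turn. The labels do not say whether the libraries of a group came from separate pools, so p-values measure the spread between these libraries, which may be technical. With groups of 3, the smallest p of an exact permutation test is 0.1.

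The members and gene lists were chosen with earlier results of these data known. Named were all members, up to 3 genes with the smallest p and the gene with the highest mean of each pathway list, and the gene with the highest mean of each marker list. Defining markers of cell types, some of which are not reported here, Foxo4 and genes induced by glucocorticoids were named besides, the latter chosen after their values were seen. Gene positions, exon lengths and promoter sequences were taken from Gencode M39 on GRCm39, the authors' build with a newer annotation, which holds 13727 of the 14051 symbols. Because the kit leaves strand unmarked, counts of genes with an exon that overlaps another gene are uncertain to that extent.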

Additional observations from a re-analysis of the deposited data

How the results depend on the processing

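With all 6 libraries, limma called 0 genes higher and 0 lower, and 0 members in each direction. DESeq2 called 2 genes lower and limma without a trend called 1 lower, and with 1 library left out the calls numbered 0 to 2 higher and 0 to 43 lower, the highest of both without GC-treated 1; the cause was not tested. In none of the 16 settings with a test, DESeq2 and edgeR included, did a member pass the threshold. Foxo1, Foxo3, Klf2, Klf3 and Btg2 kept a negative sign and Slfn2 a positive sign in these and in ashr shrinkage, all of which keep the labels. Cdkn1b ran from -0.39 to 0.011 when 1 library was left out. Pik3ip1 ran from -0.29 to 0.12 and was 0.0011 without GC-treated 1. Leaving out 1 library moved the others as well, from -0.22 to -0.031 for Foxo1, -0.58 to -0.12 for Foxo3, -0.75 to -0.36 for Klf2, -0.47 to -0.094 for Klf3, -0.41 to -0.12 for Btg2 and 0.12 to 0.41 for Slfn2. Klf2 was not under an unadjusted p of 0.05 in limma without a trend, nor without GC-treated 2, GC-treated 3 or vehicle-treated 2. The replicate block left the log2 fold change of Klf2 at -0.60, with an adjusted p of 0.57 from limma, and called no member. The labels do not say whether equal numbers mark paired samples. Deviations of same-numbered libraries from their group means correlated at 0.063, -0.14 and 0.13. With 1 pair per number these values cannot decide it, and pairing was not tested further. Unadjusted p-values under 0.05 were also given by Btg2 and Klf3 without GC-treated 2 and by Slfn2 without GC-treated 1. The lowest read count of a member was 216, a counting error of 6.80%, against a median coefficient of variation of 19.7% between libraries.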

Other observations

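With the 6 libraries ranked by count, 81 of the 11649 tested genes (0.695%) had the order of Klf2, which runs from vehicle-treated 2, vehicle-treated 1, GC-treated 1, vehicle-treated 3 and GC-treated 3 to GC-treated 2, and 59 (0.506%) had the reverse order. Slfn2 had the reverse order but for vehicle-treated 1 and GC-treated 1, which changed places. Per kilobase of exon, the level of Slfn2 was 4.20, 8.52 and 7.62 times that of Klf2 in GC-treated 1, 2 and 3 and 4.35, 2.19 and 4.97 times in vehicle-treated 1, 2 and 3. The ratio in GC-treated 1 lay among those of the vehicle-treated libraries.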
